A study of Mus musculus with 12 samples.

Results

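Hearts of mice in the AOS-FMT group were compared with hearts of untreated control mice, with 3 RNA-seq libraries in each group, so that 6 of the 12 libraries of the series carry the comparison. The AOS-FMT libraries were chosen by the treatment label B+AOS10mg/kg-FMT and the control libraries by the treatment label control. The labels write AOS and FMT without spelling them out, give AOS at 10 mg/kg, and give no busulfan dose for this group. B is read here as busulfan, an alkylating chemotherapy drug, because the series' stated aim is to study FMT in hearts that busulfan had damaged. The other libraries of the series, used below only to place the AOS-FMT levels, are 3 of B+Con-FMT, called control-FMT here, and 3 of busulfan at 20 mg/kg. All mice were of ICR, an outbred stock, and all were 10 weeks old. The control mice differed from the AOS-FMT mice in both busulfan and FMT, so this comparison alone cannot separate the 2 treatments. Replicates carry numbers in the labels, and nothing states that each came from its own animal, so p-values measure only the spread between these samples, which may be technical.

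DNA crosslinks of the kind that alkylating drugs make activate the transcription factor p53, which raises inhibitors of the cell cycle such as Cdkn1a. A separate and faster class of genes, the immediate early genes, is transcribed within minutes of a hormone, a growth factor or a handling stimulus. Part of that class is switched on through CREB, a factor that is activated by cyclic AMP and binds the DNA word TGACGTCA. In the heart, Irs2 passes on the signal of the insulin receptor, and Sik1 is a kinase that CREB induces and that restrains CREB coactivators.

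Of 13489 genes tested, 11 were called in AOS-FMT against control, which is 0.0815% of them. A gene was called at an adjusted p under 0.05 in the edgeR quasi-likelihood test, with Benjamini-Hochberg adjustment over all genes tested. The 10 called genes that rose (0.0741% of genes tested) were Cdkn1a, Gvin1, Fosl2, Irs2, Rhbdf2, Sik1, Atf3, Eda2r, Itprip and Slc25a25. Ifi27 was the single gene that fell (0.00741%). At an unadjusted p under 0.05, 732 genes were higher and 464 lower, where 674 in all would be expected by chance. The control and AOS-FMT libraries did not overlap for 894 genes with AOS-FMT above (6.63%) and 513 genes with AOS-FMT below (3.8%). Fold changes below are log2 values with their standard errors, and levels are CPM, estimated counts scaled by TMM to a common library size.

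RefSeq promoters (build GRCm38.p6, 250 bases before to 50 after an annotated start) were found for 7 of the 11 called genes, as 10 promoters. The 2 windows below are shown because Slc25a25 and Irs2 are, with Sik1, the called members of the CREB target list, and because each holds one of the 3 words searched. Capitals mark TGACGTCA in Slc25a25 and CACGTG in Irs2, and both sequences are read along the minus strand, in the direction of the gene. The Slc25a25 window belongs to an alternative start inside the gene, at 32424066, which lies 27404 bases from the gene's outermost start at 32451470, and the data do not show which start was used. The Irs2 window is that of the gene's own 5′ end.
Slc25a25, chr2:32424017-32424316: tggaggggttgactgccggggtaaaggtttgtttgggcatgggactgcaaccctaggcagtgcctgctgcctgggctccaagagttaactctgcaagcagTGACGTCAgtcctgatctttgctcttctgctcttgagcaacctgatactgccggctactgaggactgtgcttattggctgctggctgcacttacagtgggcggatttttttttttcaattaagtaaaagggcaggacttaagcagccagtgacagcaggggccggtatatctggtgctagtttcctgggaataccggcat
Irs2, chr8:11008880-11009179: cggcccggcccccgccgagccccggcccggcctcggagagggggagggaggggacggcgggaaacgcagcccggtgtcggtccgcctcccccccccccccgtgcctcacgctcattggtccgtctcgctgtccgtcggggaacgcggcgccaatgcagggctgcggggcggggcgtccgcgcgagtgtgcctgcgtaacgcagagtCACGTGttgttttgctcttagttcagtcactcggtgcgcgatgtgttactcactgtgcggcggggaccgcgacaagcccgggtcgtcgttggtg
TGACGTCA, the full CREB word, lay 150 to 143 bases before that alternative start of Slc25a25 and in 1 of the 10 promoters of called genes, against 1.79% of 32851 promoters of the same length. CACGTG, an E-box word, lay 44 to 39 bases before the start of Irs2 and in 2 of the 10 promoters (the other is of Eda2r), against 7.15% of all. TGACTCA, the word of AP-1 factors such as Fosl2, was in 0 of the 10 and in 5.20% of all promoters. Both strands were searched, no word overlaps another here, and a match describes the letters only.

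The 6 libraries held 11678739 to 14335688 estimated counts and 15097 to 16083 genes with a count. Myh6, the fast myosin of heart muscle in mice, checks the labelled tissue. It had 45126, 40905 and 41812 CPM in AOS-FMT and 56425, 51666 and 36457 CPM in control. Its fold change was -0.18 ± 0.18 (adjusted p = 0.833). The atrial score is the mean log2 CPM of 4 genes of atrial muscle (Sln, Myl4, Myl7 and Bmp10). It was 6.58, 10.4 and 9.49 in AOS-FMT and 6.05, 10.3 and 9.88 in control, and replicate 1 was low in both groups (means 8.82 ± 1.99 and 8.74 ± 2.34, SD, n = 3 each). The pair of groups was described as having like mean atrial content when it was chosen, so these values are a description with no test.

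Liver transcripts separated the groups completely. The liver score, the mean log2 CPM of 16 liver genes, was 1.97, 2.32 and 5.01 in AOS-FMT and -0.53, 0.14 and -0.34 in control (means 3.10 ± 1.66 and -0.25 ± 0.34, SD, n = 3 each). The two-sided exact permutation p was 0.1, the smallest that 3 libraries against 3 allow. The score was 0.86, 0.93 and 1.07 in busulfan and 1.87, 0.37 and 1.12 in control-FMT. Each of these libraries also lay above every control library. Alb, serum albumin, had 26.5, 28.3 and 302 CPM in AOS-FMT and 2.40, 1.14 and 0.555 CPM in control (6.46 ± 1.31, adjusted p = 0.176). The 19 liver markers in the table summed to 102, 167 and 933 CPM in AOS-FMT and to 15.8, 74.8 and 52.6 CPM in control, and AOS-FMT replicate 3 stands apart. With the liver score as a covariate edgeR called 0 genes, and 507 had an unadjusted p under 0.05. Because the score separates the 2 groups, a treatment difference and a difference in liver transcripts cannot be told apart in that fit. In bulk tissue, a change in the share of a cell type and a change in RNA per cell also cannot be told apart.

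**Figure D1:**
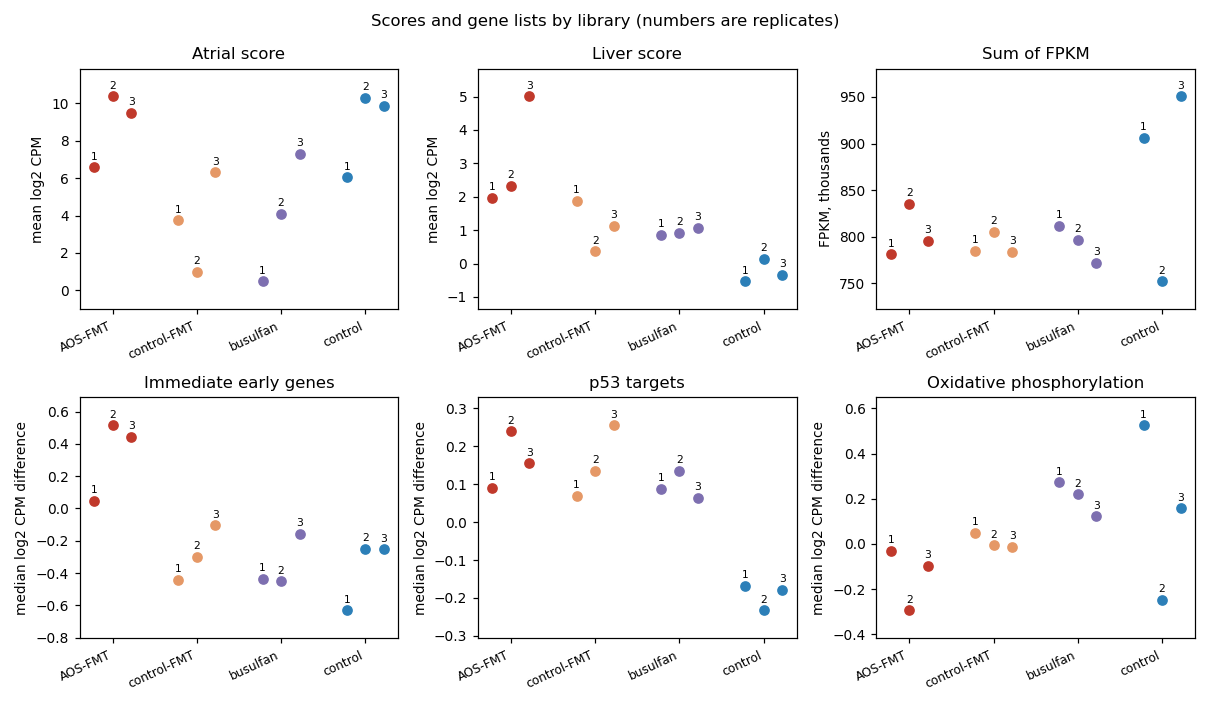
Scores and gene lists by library in the 4 groups. The vertical axes are the mean log2 CPM of the atrial and liver genes, the sum of FPKM divided by 1000, and the median log2 CPM difference of list members from their mean over the 6 libraries compared. Each point is a library and its number is the replicate. The liver score of AOS-FMT replicate 3 is 5.01, above the other AOS-FMT libraries.

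Of the 11 called genes, 5 had AOS-FMT libraries above every library of each of the other 3 groups and no separation of those groups from control. They were the AP-1 subunit Fosl2, the stress factor Atf3, the kinase Sik1, the insulin receptor substrate Irs2 and Slc25a25, a calcium-regulated carrier of adenine nucleotides in mitochondria. A sixth, Gvin1, was also above every other library in AOS-FMT, but its busulfan libraries lay above control too. In the comparison of AOS-FMT with busulfan, 6 genes were called (0.0445%), and in that with control-FMT 4 genes (0.0297%). These comparisons share the AOS-FMT libraries with the comparison against control.

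Irs2 had 73.5, 49.6 and 100.4 CPM in AOS-FMT and 13.7, 24.7 and 13.5 CPM in control. Its lowest AOS-FMT library was at 49.6 CPM, above 24.7 CPM in control replicate 2. It rose by 2.10 ± 0.27 (adjusted p = 0.0192), a 4.29-fold ratio of mean levels. Control-FMT libraries had 16.1, 14.0 and 16.0 CPM and busulfan libraries 13.8, 16.5 and 18.5 CPM. Against busulfan the fold change was 2.19 ± 0.28 (adjusted p = 0.0226) and against control-FMT 2.27 ± 0.28 (adjusted p = 0.0246). Control-FMT against control gave -0.17 ± 0.28 and busulfan against control -0.09 ± 0.28. The long non-coding gene 9530052E02Rik overlaps Irs2 in GRCm38.p6, and since the strand used in counting is not given in the sources used here, reads of the 2 genes cannot be told apart there. Irs2 (NCBI gene 384783) lies on chromosome 8 at 10984681 to 11008929.

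Sik1 had 106, 96.6 and 138 CPM in AOS-FMT and 34.2, 45.7 and 43.3 CPM in control. The lowest AOS-FMT library was above the highest of the other 9 libraries, 50.8 CPM in control-FMT replicate 3. It rose by 1.47 ± 0.21 (adjusted p = 0.0240), and by 1.56 ± 0.21 against both busulfan (adjusted p = 0.0256) and control-FMT (adjusted p = 0.0326). Slc25a25 had 15.2, 16.7 and 23.3 CPM in AOS-FMT and 8.47, 8.96 and 10.1 CPM in control. It rose by 1.00 ± 0.16 (adjusted p = 0.0386), and the control-FMT and busulfan libraries lay between 8.07 and 9.66 CPM. Against busulfan it rose by 1.05 ± 0.16 (adjusted p = 0.0457), and the difference from control-FMT (1.04 ± 0.16) did not pass the test (adjusted p = 0.0594). Sik1 (17691, chromosome 17, 31844248 to 31855804) overlaps the long non-coding gene Gm41564. Slc25a25 (227731, chromosome 2, 32414487 to 32451470) overlaps the gene Naif1.

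Fosl2 had 54.9, 50.7 and 72.9 CPM in AOS-FMT and 21.4, 31.5 and 27.5 CPM in control. It rose by 1.15 ± 0.16 (adjusted p = 0.0192), and by 1.25 ± 0.16 against busulfan (adjusted p = 0.0189) and 1.36 ± 0.16 against control-FMT (adjusted p = 0.0154). The lowest AOS-FMT library, at 50.7 CPM, was above the highest of the other 9 libraries, at 31.5 CPM in control replicate 2. Atf3 had 25.4, 26.3 and 24.6 CPM in AOS-FMT and 6.76, 7.60 and 8.49 CPM in control, and it rose by 1.74 ± 0.26 (adjusted p = 0.0240), and by 2.17 ± 0.27 against busulfan (adjusted p = 0.0189). Control-FMT libraries of Atf3 had 6.58, 12.7 and 7.94 CPM, and the difference from control-FMT (1.49 ± 0.25) did not pass the test (adjusted p = 0.137). Per transcript length, the mean level of Atf3 was 19.6 TPM in AOS-FMT and 5.17 TPM in control. Fosl2 (14284) lies on chromosome 5 at 32136472 to 32157840 and Atf3 (11910) on chromosome 1 at 191170296 to 191183333.

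**Figure D2:**
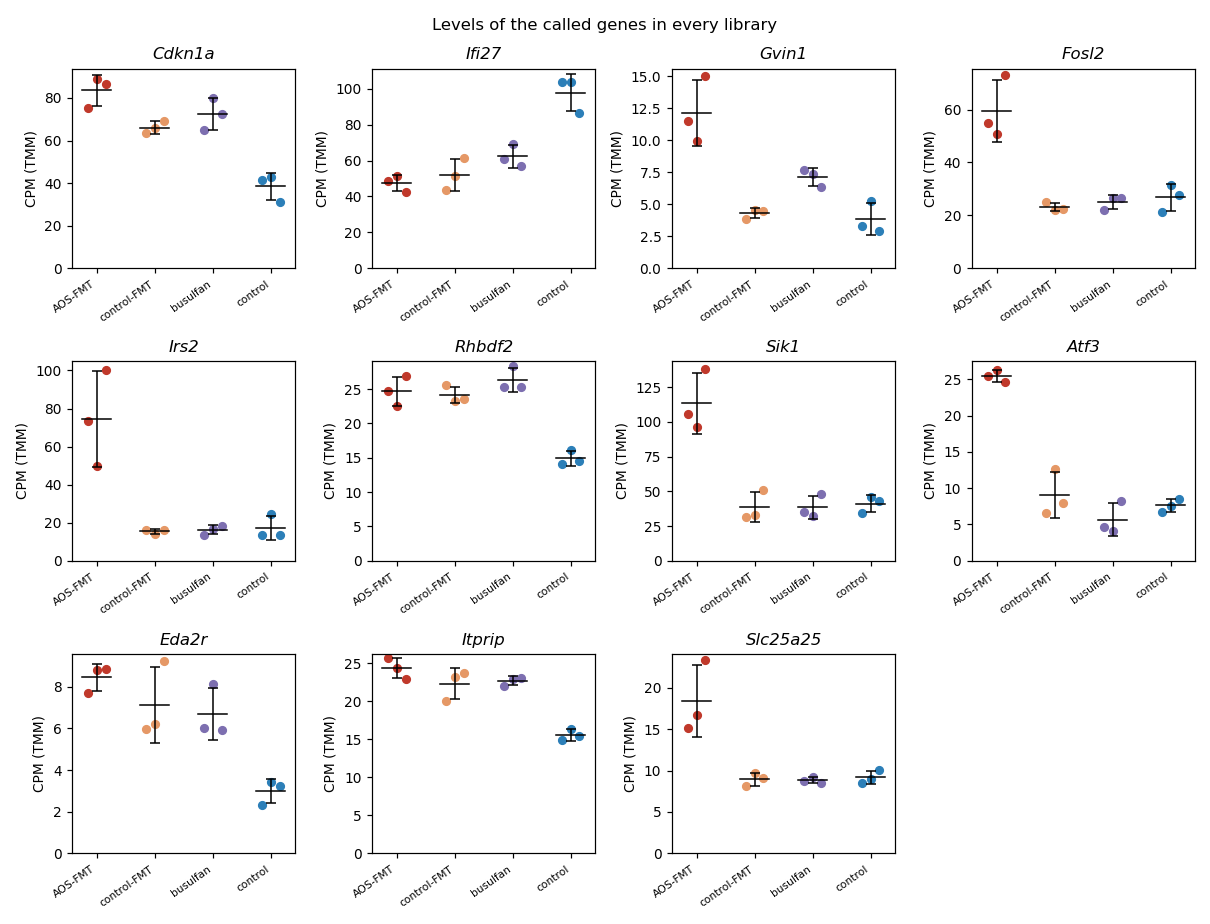
Levels of the 11 called genes in every library. Each panel plots CPM against the 4 groups, with a point for each library, a line at the mean and bars for the SD over 3 libraries. The AOS-FMT points of Irs2 lie between 49.6 and 100.4 CPM, above all other libraries.

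The wider list of immediate early genes held 30 tested members, of which 2 (Fosl2 and Atf3) were called higher, against 0.0741% of all genes. Its median fold change was 0.64, beside -0.01 over all genes, and it stayed between 0.38 and 0.85 under all alternatives. Of the 30 members, 28 were above 0 and 18 had AOS-FMT libraries above all control libraries, against 6.63% of all genes tested. Nr4a3, a nuclear receptor of the class, had 9.64, 10.1 and 26.8 CPM in AOS-FMT and 1.11, 3.72 and 3.33 CPM in control (2.50 ± 0.46, adjusted p = 0.124). The list median by library was 0.05, 0.52 and 0.45 in AOS-FMT and -0.63, -0.25 and -0.25 in control, and AOS-FMT replicate 1 was the lowest of its group.

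Members of the same list named here after their values were seen did not pass the test in the main fit. Nr4a1 and Nr4a2 passed in a fit of only the 6 libraries compared. Nr4a1, the best-known member of its receptor family, had 179.9, 164 and 193 CPM in AOS-FMT and 13.6, 24.2 and 34.7 CPM in control (2.88 ± 0.91, adjusted p = 0.400). Nr4a2 had 6.62, 6.20 and 6.51 CPM in AOS-FMT and 1.03, 1.44 and 1.35 CPM in control (2.33 ± 0.45, adjusted p = 0.124). Fos, the partner of Jun in AP-1, had 54.4, 63.4 and 56.5 CPM in AOS-FMT and 14.7, 30.7 and 24.4 CPM in control. In control-FMT replicate 3 Fos stood at 56.5 CPM and Nr4a1 at 59.0 CPM, so for Fos a library of another group reached the AOS-FMT range. Egr1 had 66.6, 93.4 and 64.3 CPM in AOS-FMT and 17.1, 61.7 and 38.2 CPM in control (0.94 ± 0.60, adjusted p = 0.693).

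Among 23 tested CREB targets, 3 were called, all higher (Irs2, Sik1 and Slc25a25), against 0.0741% of all genes tested. Of the 23, 18 were above 0 and 11 were apart with AOS-FMT above, against 6.63% of all genes tested. This list, like the others, was chosen with earlier results of these data known. The median was 0.43, and Per1, a clock gene that CREB also induces, had 19.4, 31.0 and 45.8 CPM in AOS-FMT and 15.5, 14.1 and 13.5 CPM in control (1.16 ± 0.26, adjusted p = 0.168). The Per1 level of control-FMT libraries was 10.6 to 14.9 CPM and that of busulfan libraries 8.91 to 13.2 CPM. Of 19 glucocorticoid-responsive genes, 1 (Cdkn1a, also on the list of p53 targets below) was called higher, against 0.0741% of all genes tested. Of the 19, 7 lay above control without overlap and 2 below, against 6.63% and 3.8% of all genes tested. The glucocorticoid list had a median of 0.31. That median was 0.15 without AOS-FMT replicate 3 and -0.02 with the liver score as a covariate. Sgk1, a kinase of that list, had 70.5, 62.0 and 86.8 CPM in AOS-FMT and 45.0, 44.8 and 54.5 CPM in control (0.60 ± 0.15, adjusted p = 0.188). Of 25 insulin and IGF genes, Irs2 alone was called, where 0.0741% of all genes tested were called higher. Without overlap, 2 of the 25 lay above control and 1 below, against 6.63% and 3.8% of all genes tested. The insulin and IGF median was -0.03, or 0.14 without control replicate 2.

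The other 5 called genes lay apart from control in busulfan and in control-FMT as well. They were Cdkn1a, Eda2r, Rhbdf2, Itprip and Ifi27, and in those comparisons the control libraries are the same 3. Cdkn1a, an inhibitor of cyclin-dependent kinases, had 75.4, 88.7 and 86.8 CPM in AOS-FMT and 41.4, 42.7 and 31.3 CPM in control. It rose by 1.12 ± 0.13 (adjusted p = 0.0103), and its level was 63.3, 65.7 and 69.2 CPM in control-FMT and 65.0, 80.2 and 72.6 CPM in busulfan. The AOS-FMT range overlapped the busulfan range, and the fold change against busulfan was 0.20 ± 0.13 (adjusted p = 0.457) and against control-FMT 0.34 ± 0.13 (adjusted p = 0.759). Busulfan against control gave 0.92 ± 0.13 (adjusted p = 0.0247), one of 8 genes called there (0.0593%), and control-FMT against control gave 0.78 ± 0.13 (adjusted p = 0.0816). Cdkn1a (12575) lies on chromosome 17 at 29090979 to 29100722.

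Eda2r, a receptor of the tumour necrosis factor family that p53 raises, had 7.71, 8.78 and 8.85 CPM in AOS-FMT and 2.31, 3.42 and 3.25 CPM in control. It rose by 1.49 ± 0.23 (adjusted p = 0.0240), and a pseudogene, Gm18111, overlaps it. Rhbdf2, an inactive rhomboid that guides the protease ADAM17, had 24.7, 22.6 and 26.8 CPM in AOS-FMT and 14.0, 16.2 and 14.5 CPM in control (0.73 ± 0.11, adjusted p = 0.0240). Itprip, which binds the inositol trisphosphate receptor, had 25.7, 24.4 and 23.0 CPM in AOS-FMT and 14.9, 16.4 and 15.5 CPM in control (0.64 ± 0.10, adjusted p = 0.0385). For these 3 genes the AOS-FMT libraries overlapped those of busulfan and of control-FMT. Eda2r (245527) lies on chromosome X at 97333837 to 97377234, Rhbdf2 (217344) on chromosome 11 at 116598148 to 116626960 and Itprip (414801) on chromosome 19 at 47894590 to 47919323.

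Of 34 tested p53 targets, 2 (Cdkn1a and Eda2r) were called, both higher, against 0.0741% of all genes tested. Of the 34, 25 were above 0. Without overlap, 13 lay above control and 3 below, against 6.63% and 3.8% of all genes tested. The list median was 0.19, and 0.31 without control replicate 1. Medians against control, with the same control libraries, were 0.30 in busulfan and 0.28 in control-FMT. Ckap2 had 3.35, 3.94 and 2.63 CPM in AOS-FMT and 1.28, 0.988 and 1.19 CPM in control (1.52 ± 0.30, adjusted p = 0.124). Zmat3, an RNA-binding target of p53, had 11.99, 12.97 and 12.7 CPM in AOS-FMT and 6.93, 8.51 and 8.73 CPM in control (0.64 ± 0.14, adjusted p = 0.167). The p53 targets Trp53inp1 and Btg2, named here after their values were seen, stood at 1.05 ± 0.23 (adjusted p = 0.167) and 1.33 ± 0.28 (adjusted p = 0.168). Ccng1, named in the same way, was the most abundant member that lay below control, at 1283, 908 and 1224 CPM in AOS-FMT and 1432, 1336 and 1292 CPM in control (-0.25 ± 0.14, adjusted p = 0.640).

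Ifi27, an interferon-induced gene of membranes, had 48.9, 51.2 and 42.3 CPM in AOS-FMT and 104, 104 and 86.3 CPM in control. It fell by 1.05 ± 0.14 on the log2 scale (adjusted p = 0.0192), and its level was 43.7, 51.3 and 61.3 CPM in control-FMT and 60.7, 69.3 and 57.2 CPM in busulfan. All 3 of these groups were below control, at -0.91 ± 0.14 in control-FMT against control (adjusted p = 0.0542) and -0.65 ± 0.14 in busulfan against control (adjusted p = 0.171). Ifi27l2a, another gene of the family, overlaps Ifi27 in GRCm38.p6, so the division of reads between them is uncertain. Ifi27 (52668) lies on chromosome 12 at 103434189 to 103440245. The interferon list held 32 tested genes, without the called gene Gvin1. Ifi27 was its only call, where 0.00741% of all genes tested were called lower. Of the 32, 15 were above 0 and 17 below, and the median was -0.01 (-0.07 to 0.08 with one library left out). Ifit3 had 14.0, 15.2 and 8.77 CPM in AOS-FMT and 36.6, 24.0 and 21.6 CPM in control (-1.11 ± 0.34, adjusted p = 0.338), while the chemokine Cxcl9 had 22.6, 16.3 and 13.8 CPM in AOS-FMT and 10.3, 7.22 and 6.66 CPM in control (1.12 ± 0.26, adjusted p = 0.176).

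Gvin1, a very large GTPase induced by interferon, had 11.5, 9.94 and 14.99 CPM in AOS-FMT and 3.34, 5.24 and 2.93 CPM in control. It rose by 1.65 ± 0.23 (adjusted p = 0.0192). Its levels were 3.84, 4.58 and 4.49 CPM in control-FMT and 7.66, 7.38 and 6.34 CPM in busulfan. Against busulfan it stood at 0.77 ± 0.22 (adjusted p = 0.279), and against control-FMT it rose by 1.49 ± 0.22 (adjusted p = 0.04998). The gene belongs to a family of near-identical copies and a pseudogene, Gm18853, lies within it, so its count is uncertain. Gvin1 (74558) lies on chromosome 7 at 106156535 to 106215340.

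**Figure D3:**
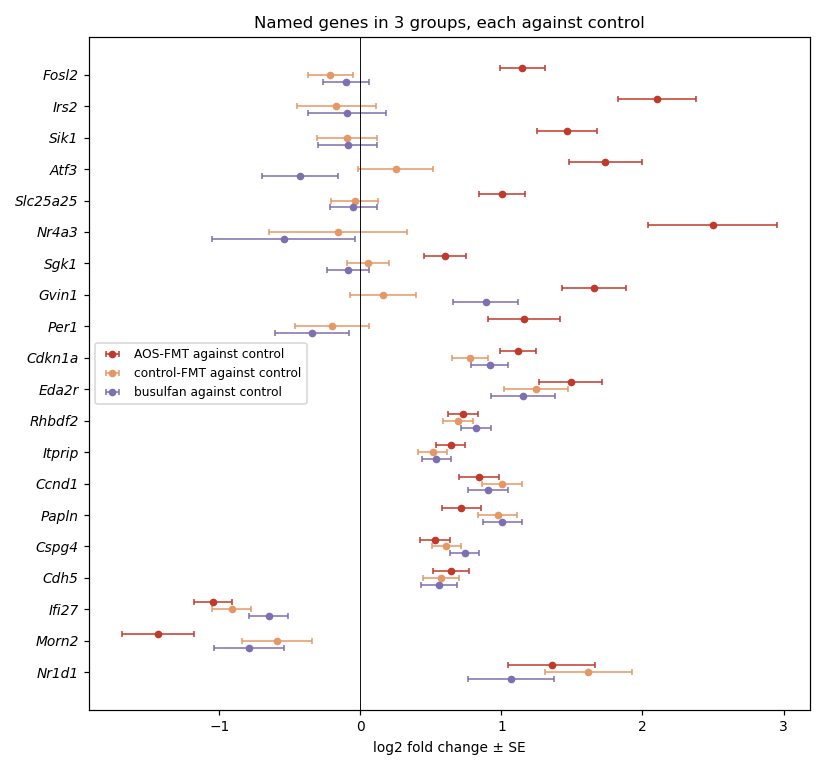
Log2 fold changes of 20 named genes in AOS-FMT, control-FMT and busulfan, each against the same 3 control libraries. Points are fitted values and bars are 1 standard error. For Irs2 the AOS-FMT value is 2.10 and the other values are near 0, while for Cdkn1a all 3 lie between 0.78 and 1.12.

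The calls rested on particular libraries. Without control replicate 1, Cdkn1a alone was called, and without control replicate 3, Cdkn1a and Ifi27 were. Without control replicate 2, 10 genes were called, of which 6 were among the 11. Without AOS-FMT replicate 3, the replicate rich in liver transcripts, 5 genes were called, and of the 11 these held Cdkn1a and Irs2. The others were Serpina1d, Apoa2 and Apoa1, and Apoa2 and Apoa1 are liver markers. Apoa2 was also called without AOS-FMT replicate 1 and in the fit without the robust option, so some liver genes passed in alternatives though not in the main fit. Without AOS-FMT replicate 1, 17 were called, 9 of them among the 11, and without AOS-FMT replicate 2, 10 were called, 7 of them among the 11. Leaving out a control-FMT or busulfan library gave 9 to 11 calls. Cdkn1a was called in all 12 of these fits, Ifi27 and Irs2 in 10, and Itprip and Slc25a25 in 1. All 11 genes kept their sign in all 25 alternatives.

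**Figure D4:**
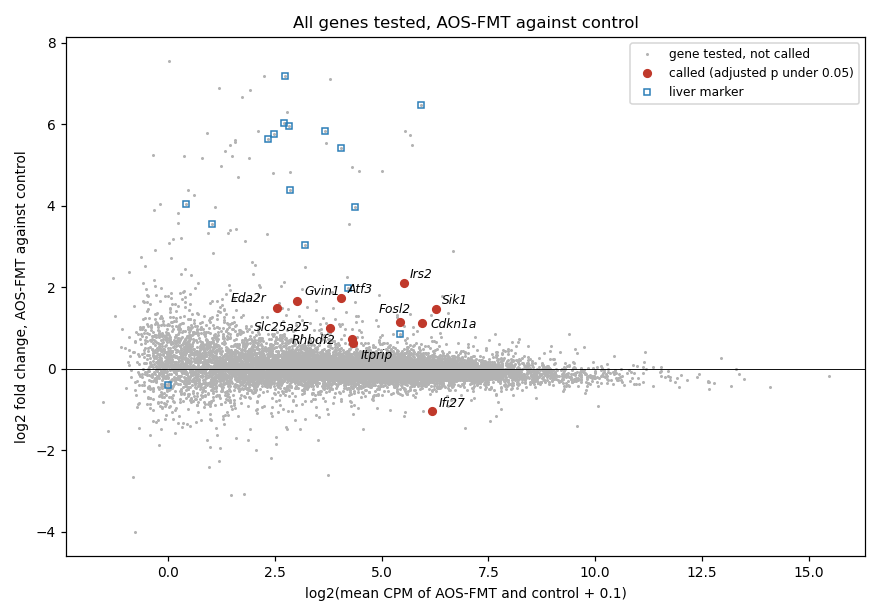
Log2 fold change of AOS-FMT against control for all 13489 genes tested, against log2 of the mean CPM plus 0.1. Red points are the 11 called genes and open squares are liver markers. Irs2 is the called gene with the highest value, 2.10, and Alb, a liver marker, lies at 6.46 and was not called.

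Beyond Ifi27, no gene lower in AOS-FMT passed the test. The 9 with the next smallest p whose groups did not overlap are given as values. Morn2 had 3.44, 2.65 and 4.75 CPM in AOS-FMT and 10.6, 9.04 and 9.60 CPM in control (-1.43 ± 0.26, adjusted p = 0.0817). Mrps12, a protein of the mitochondrial ribosome, averaged 30.6 ± 1.29 CPM in AOS-FMT and 46.2 ± 5.53 CPM in control (SD, n = 3 each, -0.59 ± 0.13). Gsta4, a glutathione transferase, averaged 45.0 ± 0.677 CPM in AOS-FMT and 65.0 ± 13.2 CPM in control, and Hpgd, which breaks down prostaglandins, 13.8 ± 3.16 CPM in AOS-FMT and 24.2 ± 4.69 CPM in control. The other 5 were Plscr2, Smim8, Klra9, Prorsd1 and Scgb1c1, with fold changes from -1.69 ± 0.37 in Klra9 to -0.56 ± 0.13 in Prorsd1. The adjusted p of the 8 genes after Morn2 ran from 0.155 to 0.183. Morn2, Hpgd and Prorsd1 also lay below every control library in both busulfan and control-FMT.

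Genes of the cell cycle held 34 tested members, of which 0 were called and 30 were above 0. Of the 34, 16 lay above control without overlap, against 6.63% of all genes tested. The list median was 0.61, and it ranged from 0.38 to 0.72 under all alternatives. Ccnd1, cyclin D1, had 76.1, 59.5 and 70.6 CPM in AOS-FMT and 40.8, 41.3 and 32.8 CPM in control (0.84 ± 0.14, adjusted p = 0.0510). Mki67, a marker of cycling cells, had 18.8, 19.4 and 15.2 CPM in AOS-FMT and 10.4, 10.3 and 8.25 CPM in control (0.88 ± 0.21, adjusted p = 0.176). Aurkb, a kinase of mitosis, had 1.84, 2.39 and 2.34 CPM in AOS-FMT and 0.770, 0.760 and 1.03 CPM in control. Medians of the list against control were 0.42 in busulfan and 0.40 in control-FMT, on the same control libraries. Ccnd1 was called in busulfan against control (0.91 ± 0.14, adjusted p = 0.0419). In control-FMT against control it stood at 1.01 ± 0.14 (adjusted p = 0.0542). Ccnd1 and Mki67 lay above every control library in both groups, and Aurkb did so in busulfan but not in control-FMT.

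Genes of the extracellular matrix held 46 tested members with 0 called and 41 above 0. Of the 46, 16 lay above control without overlap, against 6.63% of all genes tested. The median was 0.30, and it was 0.11 without AOS-FMT replicate 2. Papln, a matrix proteoglycan-like protein, had 28.8, 21.1 and 22.7 CPM in AOS-FMT and 14.3, 15.4 and 14.4 CPM in control (0.72 ± 0.14, adjusted p = 0.124). Mmp2, a protease that cuts collagen, averaged 260.04 ± 66.7 CPM in AOS-FMT and 144 ± 31.6 CPM in control, and Loxl2, which crosslinks collagen, 57.3 ± 5.76 CPM in AOS-FMT and 39.3 ± 3.84 CPM in control (SD, n = 3 each). Col1a1, the main fibrillar collagen, stood at 0.38 ± 0.29 (adjusted p = 0.752). Among markers of pericytes and smooth muscle, 12 of 15 were above 0 and 3 were apart (Cspg4, Mylk and Notch3), and Cspg4, a proteoglycan of pericytes, had 31.9, 31.7 and 28.8 CPM in AOS-FMT and 21.7, 20.5 and 21.8 CPM in control (0.53 ± 0.10, adjusted p = 0.124). Among 16 endothelial markers, 10 were above 0 and 6 below, with a median of 0.11 and values from -0.76 to 0.64. Of these, 4 were apart with AOS-FMT above, with Cdh5, a junction cadherin, at 342, 313 and 320.2 CPM in AOS-FMT and 229.8, 191 and 203 CPM in control (0.64 ± 0.13, adjusted p = 0.148). The summed endothelial level ran from 2176 to 2192 CPM in AOS-FMT and from 1968 to 2172 CPM in control. Apln, a vascular peptide, stood at 0.89 ± 0.18 (adjusted p = 0.151). Papln averaged 29.5 CPM in busulfan and 28.9 CPM in control-FMT, beside 24.2 CPM in AOS-FMT. Cspg4 averaged 35.6, 32.5 and 30.8 CPM in the same order. Both were called in busulfan against control (adjusted p = 0.0247 each). Papln, Cspg4, Mylk, Notch3, Cdh5 and Apln lay above every control library in both other groups. Mmp2 and Loxl2 did so in control-FMT but not in busulfan.

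In muscle and metabolic genes, no member was called. All 76 tested oxidative phosphorylation genes had a fold change below 0, with a median of -0.31. Of the 76, 1 lay below control without overlap, against 3.8% of all genes tested. Control replicate 1 was at 0.53 on the log2 scale relative to the mean over the 6 libraries compared, control replicates 2 and 3 at -0.25 and 0.16, and AOS-FMT libraries at -0.03, -0.29 and -0.10. The median was -0.10 without control replicate 1 and -0.49 without control replicate 2, and 0.09 with control replicate 2 as the only control, an alternative added after seeing the data. The sum of FPKM, which moves with the share of short transcripts, was 781009, 834874 and 795301 in AOS-FMT and 905820, 751808 and 950712 in control. With its log2 as a covariate, also added after seeing the data, the oxidative phosphorylation median was -0.14. Across 5 equal groups of genes by transcript length, the median fold change was -0.12 in the shortest, -0.03, 0.00 and 0.02 in the next 3 and 0.03 in the longest, and its part in the list's value was not tested.

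Sarcomere genes had a median of -0.15 over 33 tested members, 30 of them below 0. Glycolysis genes had a median of -0.18 over 25, 22 of them below 0. Of these 25, 4 lay below control without overlap, against 3.8% of all genes tested. Without control replicate 1 the medians were -0.07 and -0.08, and the glycolysis median was also -0.08 without AOS-FMT replicate 2. Pgam2, the muscle phosphoglycerate mutase, had 484, 774 and 813 CPM in AOS-FMT and 1312, 828 and 1014 CPM in control (-0.61 ± 0.20, adjusted p = 0.382). Nppa, the atrial natriuretic peptide, had 952, 17507 and 7305 CPM in AOS-FMT and 1434, 12084 and 8106 CPM in control, lowest in replicate 1 of both groups, as the atrial score was (0.25 ± 1.27, adjusted p = 0.980). Nppb, the B-type peptide that rises in a strained ventricle, had 204, 417 and 384 CPM in AOS-FMT and 234, 432 and 313 CPM in control (0.04 ± 0.27, adjusted p = 0.985). Myh7, the slow myosin, stood at -0.32 ± 0.21 (adjusted p = 0.693).

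Clock genes held 19 tested members with 0 called. Without overlap, 4 lay above control and 5 below, against 6.63% and 3.8% of all genes tested. Nr1d1, a repressor in the clock loop, had 119, 175 and 112 CPM in AOS-FMT and 38.5, 67.9 and 52.0 CPM in control (1.36 ± 0.31, adjusted p = 0.176), and its partner Nr1d2 stood at 0.76 ± 0.21 (adjusted p = 0.249). Arntl, an activator in the loop that Nr1d1 represses, had 35.6, 32.0 and 32.0 CPM in AOS-FMT and 43.7, 47.8 and 43.9 CPM in control (-0.44 ± 0.13, adjusted p = 0.316). Nr1d1 averaged 162 CPM in control-FMT and 111 CPM in busulfan, and Arntl 28.1 CPM in control-FMT and 39.9 CPM in busulfan. In both groups Nr1d1 and Nr1d2 also lay above every control library, and Arntl below. The labels give no hour of collection.

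Markers of T and NK cells gave few detected members. Of 16 T and NK cell markers, 6 were tested, all 6 were above 0 and 4 were apart with AOS-FMT above. Over all genes tested, 6.63% lay above control without overlap and 3.8% below. The median of the 6 markers was 1.54, beside 0.52 in busulfan and 1.23 in control-FMT, each against control. The 15 in the table summed to 7.97, 29.3 and 10.2 CPM in AOS-FMT and 4.79, 6.15 and 6.82 CPM in control. Without AOS-FMT replicate 2 the median was 0.91. All 20 macrophage markers were tested, with 11 above 0 and 9 below, 1 above control without overlap and 2 below, and a median of 0.03 (-0.11 to 0.21 with one library left out). The marker above control was Cx3cr1, a chemokine receptor named here after its values were seen, at 18.3, 14.1 and 16.7 CPM in AOS-FMT and 12.8, 12.9 and 13.2 CPM in control (0.33 ± 0.15, adjusted p = 0.542). Cd163, a receptor of resident macrophages, had 8.47, 9.10 and 7.75 CPM in AOS-FMT and 17.8, 20.1 and 17.1 CPM in control (-1.12 ± 0.43, adjusted p = 0.490). Timd4, another resident marker, stood at -1.08 ± 0.30 (adjusted p = 0.249). Cd163 averaged 4.64 CPM in busulfan and 4.19 CPM in control-FMT, and Timd4 3.13 CPM in busulfan and 2.38 CPM in control-FMT. Both genes lay below every control library in both groups, and Cx3cr1 lay above. For Cd163 the AOS-FMT libraries lay above those of both groups. Platelet markers were below 0 in all 6 tested members with a median of -1.80, and the median was -0.57 without control replicate 2. Against the same control libraries, the platelet median was -2.49 in busulfan and -2.32 in control-FMT. Hp, haptoglobin, an acute-phase protein, had 5.79, 12.5 and 11.8 CPM in AOS-FMT and 2.82, 3.72 and 4.44 CPM in control (1.45 ± 0.34, adjusted p = 0.176). Of 10 lung and airway markers, 7 were in the table and 0 passed the filter on low counts, with sums of 0.252 to 0.512 CPM in AOS-FMT and 0.760 to 1.28 CPM in control.

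**Figure D5:**
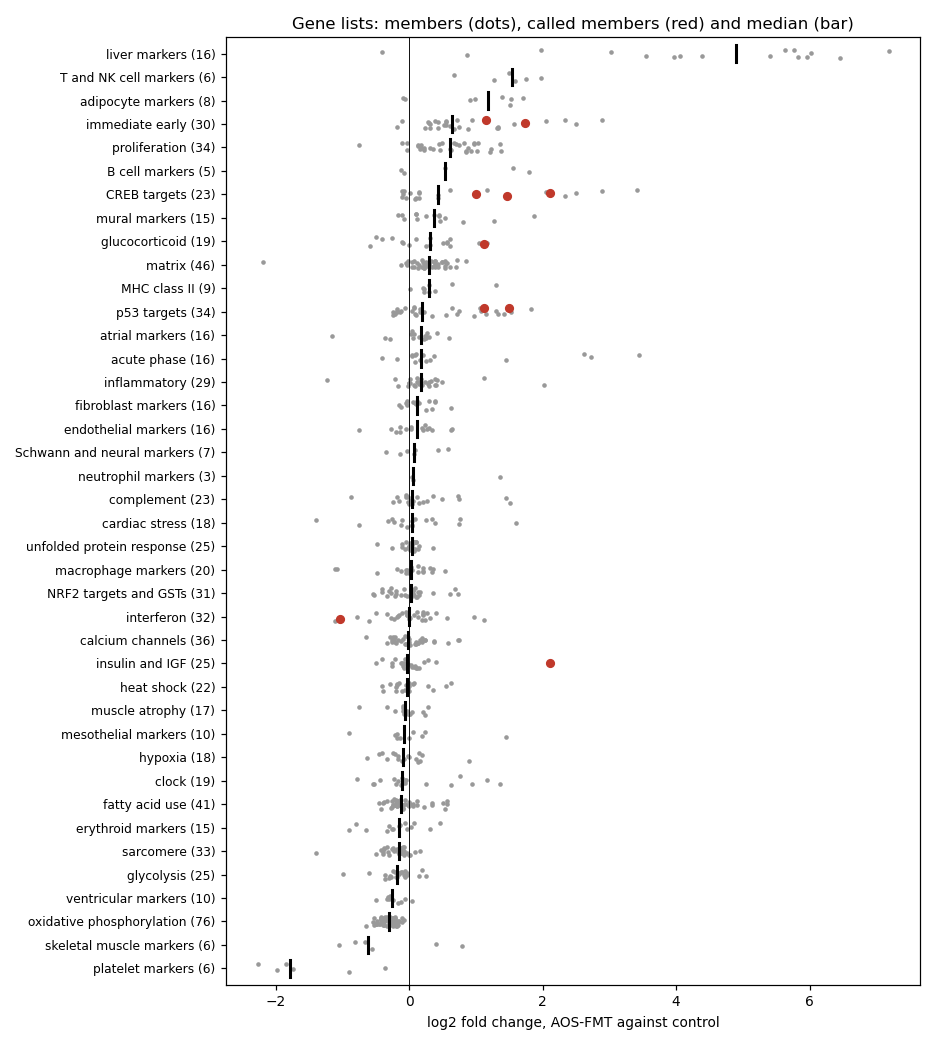
Log2 fold change of AOS-FMT against control for members of 40 gene lists with at least 3 tested members. Dots are members, red dots are called members, bars are list medians, and the number tested is in brackets. The liver marker median is 4.90, the highest of the lists, and the immediate early median is 0.64.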

How the data were processed

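Heart RNA-seq of 12 libraries was deposited as 1 table of estimated counts per gene, per the file headers, beside TPM and FPKM columns that the authors deposited for each library. The submitters' processing notes name Bowtie 0.12.2 and mm10, and which tool counted and filtered the reads is not given in the sources used here. Columns of the authors' group means were not used. The table holds 17536 genes, of which 17487 IDs matched a GRCm38.p6 gene table. Estimated counts were rounded, filtered with filterByExpr (13489 genes left), scaled by TMM (factors 0.908 to 1.08) and tested in edgeR 4.0.16 under R 4.3.3 (glmQLFit with robust dispersion, glmQLFTest), using 1 model of all 12 libraries that holds group alone. Standard errors are the fold change divided by the root of the F statistic. The biological coefficient of variation shared by all genes was 18.6%, and 0.16 was the median standard error. Scores use a prior count of 2, and the liver score was tested with a two-sided exact permutation test. Deposited TPM values were used for levels per transcript length, and deposited FPKM for the sum of a library. Counts of 2 replicates differed beyond counting error in each group (chi-square over its degrees of freedom 8.88 to 71.5).

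Named genes were all called genes, the uncalled genes lower in AOS-FMT with the next smallest p up to 10 in that direction, without overlap and with a higher mean of at least 5 CPM, up to 3 members of each of 41 gene lists, and a set of fixed genes. Others are marked where they occur. The genes and lists were chosen with earlier results of these data known. The procedure was also run on simulated counts, and its outcome is not given here. The simulated libraries of a group shared the same expected levels. That run therefore cannot speak to differences in liver or atrial transcripts between libraries. DESeq2 1.42.0 and limma 3.58.1 gave alternatives.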

Additional observations from a re-analysis of the deposited data

How the results depend on the processing

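The 11 calls (10 higher, 1 lower) came out as 11 with RLE size factors, 14 with library size only, 13 with a stricter filter, 12 without the robust option and 8 with limma-voom. With library size only the median of all genes was 0.09, beside -0.01 with TMM. Without the filter 12 genes were higher and 2 lower. With DESeq2 there were 122 calls (97 higher, 25 lower), which held all 11. A fit of only the 6 libraries compared called 6 higher and 0 lower, of which 2 (Sik1 and Atf3) are among the 11. The others were Btg2, Nr4a1, Hmga1b and Nr4a2. With the replicate block, 25 were called, 21 higher and 4 lower, including all 11. Nothing in the labels states that the numbers pair the samples. The correlations of same-numbered deviations were 0.45, 0.29 and -0.08. AOS-FMT replicates 1 and 2 correlated best with the control of the same number, and AOS-FMT replicate 3 with control replicate 2. These few correlations cannot decide whether the samples are paired. The calls with the block also held Btg2, Nr4a2 and Nr4a3. With the atrial score as covariate 23 were called, 21 higher and 2 lower, and these also held Btg2, Nr4a2 and Nr4a3. With the liver score 0 were called by edgeR, 0 higher and 0 lower (507 at an unadjusted p under 0.05), as with control replicate 2 as the only control, where 1234 genes had an unadjusted p under 0.05 and the lone library is assumed to vary like the other groups. With the log2 FPKM sum 5 were called, 4 of them higher. The FPKM sum and control replicate 2 as the only control were added after the data were seen. Leaving out one library gave 1 to 17 calls, 1 to 16 higher and 0 to 3 lower.

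The atrial score difference of 0.08, given as a description, ran from -1.27 to 1.20 with one library left out, at -0.70 without AOS-FMT replicate 2, -0.26 without AOS-FMT replicate 3 and -1.27 without control replicate 1. The liver score difference of 3.35 ran from 2.39 to 3.91. The replicate block gave 0.08 and 3.35 for the 2 scores.

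No called fold change of AOS-FMT against control changed sign. Some uncalled values did, among them Col1a1 at 0.38 and Myh7 at -0.32 in the main fit, and the cause was not tested. In AOS-FMT against control, Nppa stood at -0.089 with limma-voom, -0.33 with the liver score and -0.50 with control replicate 2 alone, and ran from -0.81 to 0.85 with one library left out, changing sign without AOS-FMT replicate 2 or control replicate 1. Nppb stood at -0.60 with the liver score, -0.078 with the FPKM sum and -0.38 with control replicate 2 alone, and ran from -0.16 to 0.30 with one library left out, changing sign without AOS-FMT replicate 2, AOS-FMT replicate 3 or control replicate 1. Myh7 stood at 0.083 with the liver score. Col1a1 stood at -0.012 with control replicate 2 alone, and ran from -0.034 to 0.62 with one library left out, changing sign without AOS-FMT replicate 2.

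In AOS-FMT against busulfan, Rhbdf2 stood at 0.036 with library size only.

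In AOS-FMT against control-FMT, Ifi27 stood at 0.039 with the liver score. Rhbdf2 stood at -0.11 with the liver score, and ran from -0.034 to 0.094 with one library left out, changing sign without AOS-FMT replicate 3. Eda2r stood at -0.049 with the atrial score.

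In busulfan against control, Fosl2 stood at 0.11 with the atrial score, and ran from -0.26 to 0.029 with one library left out, changing sign without control replicate 2. Irs2 stood at 0.16 with the atrial score, and ran from -0.26 to 0.26 with one library left out, changing sign without busulfan replicate 1 or control replicate 2. Sik1 stood at 0.28 with the atrial score, and ran from -0.28 to 0.021 with one library left out, changing sign without busulfan replicate 2. Slc25a25 stood at 0.012 with the atrial score, and ran from -0.12 to 0.0058 with one library left out, changing sign without control replicate 3.

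In control-FMT against control, Gvin1 stood at -0.021 with the liver score, -0.078 with the FPKM sum and -0.30 with control replicate 2 alone, and ran from -0.013 to 0.45 with one library left out, changing sign without control replicate 3. Fosl2 stood at 0.015 with the atrial score. Irs2 stood at 0.10 with the atrial score, and ran from -0.33 to 0.18 with one library left out, changing sign without control replicate 2. Sik1 stood at 0.28 with the atrial score, and ran from -0.35 to 0.025 with one library left out, changing sign without control-FMT replicate 1 or control-FMT replicate 2. Atf3 ran from -0.071 to 0.44 with one library left out, changing sign without control-FMT replicate 2. Slc25a25 stood at 0.0054 with library size only and 0.027 with the atrial score, and ran from -0.10 to 0.029 with one library left out, changing sign without control-FMT replicate 1 or control replicate 3.

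The exact test of the liver score could not fall below 0.1 with 3 libraries against 3.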

Other observations

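No member of the lists that follow was called in AOS-FMT against control. Genes of MHC class II antigen presentation were above 0 in all 9 tested members, with a median log2 fold change of 0.29 (0.16 without AOS-FMT replicate 2). Of the 9, 1 lay above control without overlap, against 6.63% of all genes tested. Inflammatory genes had a median of 0.17 over 29 tested members, 23 of them above 0 (0.09 without AOS-FMT replicate 2 or control replicate 1), and acute-phase genes 0.18 over 16, 14 of them above 0 (0.04 without control replicate 1). The next 4 medians changed sign with one library left out. Complement genes had a median of 0.04 over 23, which was -0.15 without AOS-FMT replicate 2. Heat shock genes had a median of -0.04 over 22, which became 0.07 with library size only and 0.02 without AOS-FMT replicate 2 or control replicate 1. Genes of the unfolded protein response stood at 0.03 over 25, and at -0.03 without control replicate 1. Targets of NRF2 and glutathione transferases had a median of 0.02 over 31, which was -0.12 without AOS-FMT replicate 2.

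Genes of fatty acid use had a median of -0.12 over 41 (-0.03 without AOS-FMT replicate 2 and near 0 without control replicate 1) and hypoxia genes -0.10 over 18 (0.01 without control replicate 1). Genes of calcium handling and ion channels stood at -0.02 over 36, cardiac stress genes at 0.03 over 18 and genes of muscle atrophy at -0.06 over 17. The calcium and atrophy medians became 0.07 and 0.04 with library size only. Without control replicate 2 the calcium median was 0.12, and the cardiac stress median ran from -0.15 without AOS-FMT replicate 2 to 0.29 without control replicate 2.

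Atrial markers had a median of 0.18 over 16, which was -0.46 without AOS-FMT replicate 2, -0.22 without control replicate 1 and -0.50 with the liver score as a covariate. Ventricular markers stood at -0.27 over 10, and at -0.06 without AOS-FMT replicate 2. Fibroblast markers had a median of 0.11 over 16, which was -0.27 without AOS-FMT replicate 2 and -0.08 without control replicate 1. Medians were 1.18 over 8 adipocyte markers, 0.53 over 5 B cell markers and 0.05 over 3 neutrophil markers, and the last was -0.03 without control replicate 1. The summed level of the 10 adipocyte markers was 608, 587 and 531 CPM in AOS-FMT and 688, 346 and 700.3 CPM in control, so the groups overlapped in the sum. Erythroid markers stood at -0.15 over 15 (0.15 without control replicate 3), mesothelial markers at -0.08 over 10 and Schwann and neural markers at 0.07 over 7. Skeletal muscle markers stood at -0.61 over 6, and at 0.77 without control replicate 2. The mesothelial median ran from -1.44 without AOS-FMT replicate 2 to 2.43 without control replicate 2.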
